A study of Rattus norvegicus with 288 samples.

Results

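The collagen and laminin chains are the genes whose proteins build the extracellular matrix and the basement membrane, and 51 of them were measured among 14218 genes of the array. They were chosen by symbol alone, as Col followed by a type number, the letter a and a chain number, or as Lama, Lamb or Lamc and a number. The 51 genes were 41 collagen chains and 10 laminin chains, read by 72 of the 20832 probe sets that carry 1 gene symbol. Every gene was represented in each tissue by its probe set with the highest mean there, and none was left out for a low signal. The same probe set served all 3 tissues for 48 of the 51 genes, the exceptions being Col14a1, Col1a1 and Col2a1.

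The values come from Affymetrix rat genome arrays, 1 for the bone marrow, 1 for the heart and 1 for the liver of each of 96 male Sprague-Dawley rats aged 7 to 8 weeks. Each rat received an intravenous dose of Temsirolimus, an inhibitor of the growth kinase mTOR, at 0.3 mg/kg, or its vehicle, TEM_vehicle. An oral dose followed, of Sunitinib at 5 mg/kg, of Sorafenib at 25 mg/kg, of sterile water or of F68/PG/PEG400, and the 8 resulting treatments were sampled at 1, 6 and 24 h with 4 rats in each group. Sunitinib and Sorafenib are inhibitors of several kinases, among them receptors of vascular endothelial and platelet-derived growth factors. Sunitinib was compared with sterile water and Sorafenib with F68/PG/PEG400, 8 rats against 8 with both intravenous arms in each, and Temsirolimus with TEM_vehicle, 16 rats against 16 over all 4 oral treatments. The same rats enter the Temsirolimus and the oral comparisons. Rats were sampled after a single dosing, marrow was flushed from a femur and the heart sample was its apex, so every value is the mixture of all cells of a tissue piece.

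Fibril-forming collagens such as types I and III give connective tissue and bone their strength. Type IV collagen and the laminins form the 2 networks of the basement membrane, the sheet under endothelium, around muscle fibres and around fat and nerve cells. A laminin is a trimer of 1 alpha, 1 beta and 1 gamma chain, and type IV collagen is a trimer whose most widespread form holds Col4a1 and Col4a2 chains. In bone marrow these proteins come mostly from stromal, endothelial and bone-forming cells, in heart from fibroblasts, endothelium and muscle, and in liver from stellate and sinusoidal endothelial cells.

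The promoters of the chains that the results turn on are shown to place them in the genome. The main reason is that Col4a1 and Col4a2 are read away from each other, on opposite strands, from a shared promoter. Sequences are RefSeq's on the GRCr8 build and are 300 bases long, ending shortly after the start of the gene and written in its own direction. Capitals mark matches on either strand to CCAAT, to the GC box GGGCGG or to TATAAA.
Col4a1, chr16:84885347-84885646, forward strand: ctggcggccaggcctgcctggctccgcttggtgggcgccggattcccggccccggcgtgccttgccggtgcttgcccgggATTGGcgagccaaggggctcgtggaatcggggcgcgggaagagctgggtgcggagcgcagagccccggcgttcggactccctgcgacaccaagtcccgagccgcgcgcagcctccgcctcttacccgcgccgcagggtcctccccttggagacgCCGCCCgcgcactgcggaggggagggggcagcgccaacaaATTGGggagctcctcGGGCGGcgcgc
Col4a2, chr16:84885471-84885770, reverse strand: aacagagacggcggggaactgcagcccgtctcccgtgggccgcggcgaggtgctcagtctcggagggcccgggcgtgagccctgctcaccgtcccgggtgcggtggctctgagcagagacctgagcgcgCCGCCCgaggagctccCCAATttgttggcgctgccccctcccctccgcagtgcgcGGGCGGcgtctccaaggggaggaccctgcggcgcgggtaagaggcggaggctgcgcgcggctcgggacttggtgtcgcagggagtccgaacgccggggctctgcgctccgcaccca
Lamb1, chr6:53562846-53563145, forward strand: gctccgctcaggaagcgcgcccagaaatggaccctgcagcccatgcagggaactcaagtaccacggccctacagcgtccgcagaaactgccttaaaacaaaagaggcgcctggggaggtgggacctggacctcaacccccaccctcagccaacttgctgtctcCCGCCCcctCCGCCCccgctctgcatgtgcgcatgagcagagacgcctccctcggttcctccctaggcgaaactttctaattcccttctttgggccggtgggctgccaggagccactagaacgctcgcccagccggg
Lama4, chr20:43946648-43946947, forward strand: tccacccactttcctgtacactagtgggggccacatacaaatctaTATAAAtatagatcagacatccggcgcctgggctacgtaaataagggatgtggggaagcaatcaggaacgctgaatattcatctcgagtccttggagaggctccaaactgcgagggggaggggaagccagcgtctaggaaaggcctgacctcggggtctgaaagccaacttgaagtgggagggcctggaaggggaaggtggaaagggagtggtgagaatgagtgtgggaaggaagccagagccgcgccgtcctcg
Col13a1, chr20:30466751-30467050, reverse strand: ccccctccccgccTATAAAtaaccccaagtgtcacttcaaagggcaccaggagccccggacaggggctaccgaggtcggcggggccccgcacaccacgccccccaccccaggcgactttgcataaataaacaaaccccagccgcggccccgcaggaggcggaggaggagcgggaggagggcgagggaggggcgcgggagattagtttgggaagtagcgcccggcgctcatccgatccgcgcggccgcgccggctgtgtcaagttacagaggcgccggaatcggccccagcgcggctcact
The Col4a1 and Col4a2 windows shared 176 bases, and their start sites on opposite strands of chromosome 16 lay 77 bases apart. Col4a5 and Col4a6, another divergent pair on the X chromosome, had start sites 1415 bases apart. Of the 41 chains with a promoter in the table, 23 held GGGCGG (56.1% against 34.9% of 27457 promoters), 12 held CCAAT (29.3% against 37.7%) and 5 held TATAAA (12.2% against 14.3%). Lama4 and Col13a1 each held 1 TATAAA and neither of the other motifs, whereas Lamb1 held GGGCGG 2 times.

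Signals are RMA values on the log2 scale, so a difference of 1 is a doubling. A gene was called changed at an adjusted p under 0.05 in limma, adjusted over all 14218 genes of a comparison. The tissues held the transcripts their labels imply: the mean level of hepatocyte markers was 14.7 in the median liver array, that of cardiac muscle markers 13.5 in the median heart array, and that of neutrophil and granulocyte markers 13.7 in the median marrow array. Hepatocyte transcripts also varied in heart, from 5.95 to 12.3 over 95 arrays. Of all arrays, 4 are treated as standing apart and touch results given here. The paper names 2 of them, the marrow array of rat 4M45 and the liver array of rat 4M48, as potential outliers. The other 2 lay far from their replicates. The marrow array of rat 4M45 (Temsirolimus then F68/PG/PEG400, 6 h) had a neutrophil and granulocyte level of 12.5 where no other was under 13.4. The heart array of rat 6M68 (Temsirolimus then Sorafenib, 1 h) had a hepatocyte level of 14.3. The liver arrays of rats 7M78 (TEM_vehicle then Sunitinib, 24 h) and 4M48 (Temsirolimus then F68/PG/PEG400, 24 h) also stood apart, the first with a macrophage level of 9.07. Where leaving out these 4 arrays changed whether a chain was called, both outcomes are given. The heart array of rat 4M46 (Temsirolimus then F68/PG/PEG400, 6 h), a control of the Sorafenib comparison at 6 h, was kept when these 4 were left out. Its mean distance to its replicates was 107, beside 92.4 for the liver array of rat 4M48.

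In vehicle-treated rats, most basement membrane chains had their highest signal in heart. Each tissue had 24 such rats, and because the arrays seem to have been normalised tissue by tissue, tissue differences are given as levels of the same probe set with no test. Of the 51 chains, 30 were highest in heart (32.9% of all genes were), 14 in liver (39.7%) and 7 in bone marrow (27.3%). Without any overlap between the highest tissue and the next, 25 were highest in heart (15.1% of all genes), 4 in liver (17.7%) and 2 in bone marrow (14%). All 5 measured collagen IV chains and all 3 measured laminin beta chains belonged to the 25 of heart. Of these, Col4a4 was dim, with 5.38 in heart, where 25% of probe sets lay under 5.48 in the median array. The 14 of liver include Col2a1, which the shared probe set read at 5.85 in liver and 5.06 in marrow. The probe set used for Col2a1 in marrow elsewhere in this report read 6.39 in marrow.

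Col4a1, a chain of nearly every basement membrane, had a signal of 12.00 ± 0.18 (SD, n = 24) in heart, 8.86 ± 0.18 in liver and 7.43 ± 0.30 in bone marrow. Lamb2, the beta chain found at muscle and nerve junctions and in vessel walls, ran from 11.84 ± 0.20 in heart through 7.06 ± 0.10 in liver to 5.23 ± 0.26 in marrow. Lama2, the alpha chain of muscle basement membranes, stood at 11.76 ± 0.12, 8.29 ± 0.16 and 5.64 ± 0.11 in the same order. None of these 3 chains overlapped between heart and the next tissue. Lama4, the alpha chain of blood vessels, was at 10.90 ± 0.15 in heart, and its 7.42 ± 0.26 in marrow and 7.31 ± 0.11 in liver lay within the spread of each other. Lamc1, the common gamma chain, had 11.98 ± 0.09 in heart, 8.41 ± 0.13 in liver and 7.98 ± 0.15 in marrow.

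Liver was the highest tissue for another set of chains. Col18a1, the precursor of endostatin, was at 11.40 ± 0.21 in liver, 7.94 ± 0.21 in heart and 6.60 ± 0.12 in marrow. Lama3, the alpha chain of epithelial laminins, had 9.08 ± 0.65 in liver against 5.93 ± 0.12 in heart and 5.65 ± 0.18 in marrow, and its liver level differed with the hour of sampling. Col13a1, a collagen anchored in the cell membrane, had 7.09 ± 0.20 in liver, 5.36 ± 0.24 in marrow and 4.62 ± 0.13 in heart. Col20a1 was the fourth chain that was highest in liver without overlap.

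Bone marrow was the highest tissue without overlap only for Col11a1, a minor fibril chain of cartilage and bone (8.22 ± 0.68, against 5.60 ± 0.17 in liver and 5.31 ± 0.20 in heart), and Col8a2 (7.04 ± 0.39, 5.75 ± 0.16 and 5.36 ± 0.32). The type I chains, the main protein of bone, were as high in marrow as in heart within their spread. Col1a1 had 11.16 ± 0.62 in marrow, 11.32 ± 0.22 in heart and 7.67 ± 0.24 in liver, and Col1a2 had 11.80 ± 0.57, 12.06 ± 0.16 and 9.37 ± 0.27. Type III collagen, Col3a1, was highest in heart (13.61 ± 0.11), then liver (12.22 ± 0.16), then marrow (8.95 ± 0.43).

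**Figure D1:**
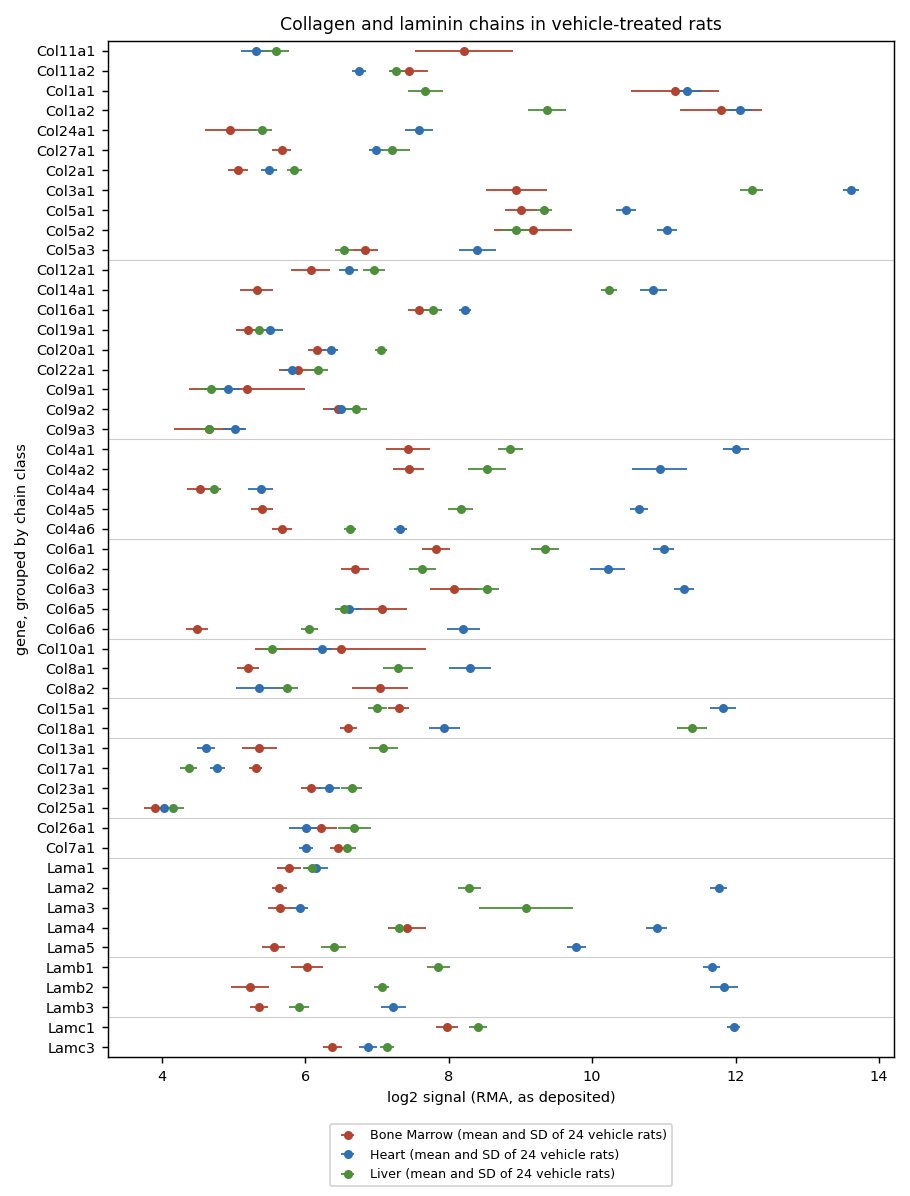
The log2 signal of each of the 51 chains in vehicle-treated rats, grouped by chain class and read from the same probe set in each tissue, with points for the mean and lines for the SD of 24 rats in bone marrow, heart and liver. The heart points of the collagen IV and laminin beta chains lie to the right of both other tissues, and Col10a1 has a marrow line of 1.19 on each side.

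Temsirolimus lowered 3 chains in bone marrow at 24 h: Col3a1 of type III collagen, and the laminin chains Lama4 and Lamb1. The 3 called were 3 of 51, where 2.49% of all genes were called, and none rose. Some marrow arrays of TEM_vehicle rats, at 24 h among other times, carry an N2 mark in their sample names. What the mark stands for is not stated in the paper. With a covariate for the N2 mark, Col3a1, Lama4 and Lamb1 were again the chains called at 24 h, among 295 genes in all. The shift was wider than the calls: 38 of the 51 were lower, with a median change of -0.14 beside -0.000802 over all genes, and 33.3% of the chains had an unadjusted p under 0.05 beside 13% of all genes. All 11 fibril-forming chains were lower, with a median of -0.35, and 1 of them was called. One-sided shifts also occurred in marrow where 0 chains were called. After Sunitinib, 11 of the 51 were lower at 1 h and 6 at 24 h, each with a median of 0.09. Many chains varied together from rat to rat in marrow, so they do not count as separate observations.

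Over the 16 Temsirolimus rats, Col3a1 in marrow ran from 7.58 through a median of 8.53 to 9.90, and over the 16 TEM_vehicle rats from 8.36 through 9.17 to 9.82. The change was -0.55 (SE 0.13, adjusted p = 0.00997). The lowest values were those of Temsirolimus rats, but the whole control range lay within the treated range, whose highest value came from a Temsirolimus rat given F68/PG/PEG400. Lama4 had values of 6.73, 7.04 and 7.44 (lowest, median, highest) after Temsirolimus and of 6.89, 7.42 and 7.96 after TEM_vehicle, a change of -0.32 (SE 0.077, adjusted p = 0.00955). Its second, much dimmer probe set showed -0.02 (adjusted p = 0.972). Lamb1 had 5.19, 5.84 and 6.35 against 5.74, 6.08 and 7.02, a change of -0.32 (SE 0.077, adjusted p = 0.00917). Both laminin chains overlapped between the groups, with the treated medians near the lower end of the control range.

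The partners of these chains did not pass in the fit of all arrays. Col4a1 had 6.65, 7.35 and 7.59 after Temsirolimus and 6.93, 7.49 and 8.28 after TEM_vehicle, a change of -0.30 with adjusted p = 0.0613, and Lamc1 changed by -0.15 (adjusted p = 0.160). Both were called once the array of rat 4M45 was left out (adjusted p = 0.0269 and 0.0447), when 5 chains fell and 6% of all genes were called. That array is of another time and enters only through the shared estimate of spread, so the changes themselves stayed the same. Col4a2 changed by -0.09 (adjusted p = 0.704). The type I chains showed larger differences with wider errors, Col1a1 -0.57 (SE 0.27, adjusted p = 0.349) and Col1a2 -0.64 (SE 0.24, adjusted p = 0.174).

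By oral treatment, the Temsirolimus differences of Col3a1, Lamb1 and Col4a1 were larger in rats that also had an oral drug. For Col3a1 the mean difference of 4 rats against 4 was -0.05 in rats given sterile water, -0.41 with F68/PG/PEG400, -1.06 with Sunitinib and -0.67 with Sorafenib. The same 4 differences were -0.21, -0.02, -0.69 and -0.36 for Lamb1 and -0.06, -0.11, -0.61 and -0.44 for Col4a1. For Lama4 they were -0.30, -0.20, -0.64 and -0.13. In the rats given Sunitinib, the TEM_vehicle arm was also the highest of the 4 TEM_vehicle arms for each of these 4 chains, as the means of 9.54 for Col3a1 and 6.51 for Lamb1 show.

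With the oral vehicles only, 0 chains were called for Temsirolimus. With an oral drug, Col3a1 (-0.86, adjusted p = 0.00776), Lamb1 (-0.52, adjusted p = 0.00462) and Col4a1 (-0.52, adjusted p = 0.0309) fell, as did Col6a3 of type VI collagen (-0.66, adjusted p = 0.0294), while Lama4 had -0.39 (adjusted p = 0.0731). The share of all genes called in each of these comparisons is not given here, so the counts do not single out the chains. The difference between the arms did not pass its own test: the interaction of Temsirolimus with an oral drug, tested over all times, had an unadjusted p of 0.0199 for Col3a1 and 0.0490 for Lamb1 and an adjusted p of 0.981 for both. Within the first and the second array set, groups of plates read from the array names, the changes were -0.66 and -0.43 for Col3a1, -0.32 and -0.31 for Lama4, and -0.54 and -0.10 for Lamb1. The paper reports dosing on consecutive days, and whether the sets match those days is not stated.

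**Figure D2:**
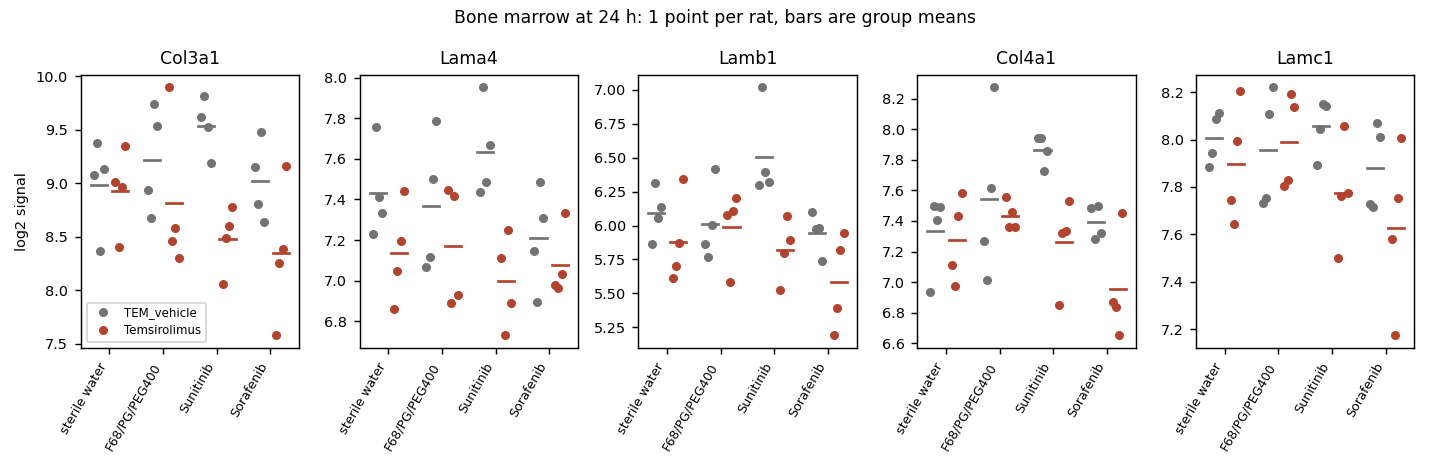
The log2 signal in bone marrow at 24 h for Col3a1, Lama4, Lamb1, Col4a1 and Lamc1 by oral treatment, with a point for each rat and a bar for the mean of 4 rats after TEM_vehicle (grey) or Temsirolimus (red). The gap between the bars is widest with Sunitinib for all 5 chains, -1.06 for Col3a1, and the groups overlap in most panels.

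Stromal markers moved in the same marrow samples. Of 8 fibroblast markers 4 fell, namely Pdgfra (-0.27), Dcn (-0.38), Mfap5 (-0.41) and Fap (-0.31), and the level of the list ran from 7.41 to 7.78 after Temsirolimus and from 7.60 to 8.16 after TEM_vehicle. Of 8 endothelial markers 2 fell, Esam (-0.30) and Cldn5 (-0.39), with list levels of 7.62 to 8.16 against 7.73 to 8.32. Of 6 megakaryocyte and progenitor markers Gp9 and Vwf fell, with levels of 10.4 to 10.9 against 10.6 to 11.2, and 0 of 6 osteoblast markers passed in limma, with levels of 7.24 to 10.1 against 7.83 to 10.9. Without the array of rat 4M45, the osteoblast marker Bglap (-0.70, adjusted p = 0.0265) fell too, as did Kdr of endothelium, Acta2 of smooth muscle, Gsn of fibroblasts, the macrophage markers Cd68, Csf1r and Mrc1, and the platelet genes Pf4 and Ppbp, while the erythroid marker Alas2 rose (0.10). Their part in the result was not tested. In such tissue samples, fewer cells of a type and less RNA per cell cannot be told apart.

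A few enzymes that make and finish collagen also fell in marrow at 24 h. Of 19 measured genes for collagen folding and processing 3 fell and 0 rose, beside 2.49% of all genes called: Serpinh1, the collagen chaperone of the endoplasmic reticulum (-0.65, adjusted p = 0.0183), P4ha1, a prolyl hydroxylase subunit (-0.32, adjusted p = 0.0380), and Pcolce, which helps remove the propeptide of fibril collagens (-0.39, adjusted p = 0.0255). Without the array of rat 4M45, 8 of the 19 fell, beside 6% of all genes called. Of 6 cross-linking genes Loxl1 (-0.28, adjusted p = 0.000549) and Pxdn, the peroxidase that joins type IV collagen (-0.23, adjusted p = 0.0306), fell. The collagen receptor Ddr2 fell by 0.24 on the log2 scale, 1 of 11 receptors, and the gelatinase Mmp2 fell by 0.52, 1 of 14 matrix-degrading enzymes and inhibitors. None of 9 basement membrane partners such as nidogens and perlecan was called.

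At 1 and 6 h, Temsirolimus moved 0 of 51 chains in bone marrow in limma, where 0.00703% and 0.0211% of all genes were called, with 0 and 4 chains at an unadjusted p under 0.05. In heart 0 chains were called at 1, 6 or 24 h (0.0352%, 0.992% and 2.12% of all genes), with 0, 4 and 2 chains at the unadjusted level. The genes called in heart at 6 h include hepatocyte markers, all higher after Temsirolimus. Among them were Alb (3.10, adjusted p = 0.0160), Ahsg (2.68, adjusted p = 0.00940) and Apoa1 (2.24, adjusted p = 0.0113), each with overlapping groups. Their part in the heart results was not tested. Col3a1, which fell most among the 3 called marrow chains, had -0.01 in heart at 24 h. Serpinh1 alone of the folding and processing genes fell in heart at 24 h (-0.26, adjusted p = 0.0164). In liver 0 chains were called at 1 and 6 h (0% and 0.00703%), with 1 and 3 at the unadjusted level.

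In liver at 24 h, Temsirolimus changed 11.9% of all genes and 1 of the 51 chains, Lamb2, which rose. Its values were 6.81, 7.13 and 7.89 after Temsirolimus against 6.18, 7.06 and 7.26 after TEM_vehicle (lowest, median, highest of 16 rats), a change of 0.24 (SE 0.069, adjusted p = 0.0123). The medians nearly met and the groups overlapped, with the extremes carrying the difference. Without the arrays of rats 7M78 and 4M48 the change was 0.15 (adjusted p = 0.0975), and Col7a1, the anchoring fibril chain, was called instead (0.12, adjusted p = 0.0457). Lamc1 had 0.18 (adjusted p = 0.0541). Of the folding and processing genes in liver, P4hb (-0.19), Ppib (-0.27) and Fkbp14 (-0.16) fell and Mia3 (0.19) rose, the last of these with adjusted p = 0.135 without the 2 arrays. The membrane-type protease Mmp14 rose by 0.48 and the laminin receptor chain Itga7 fell by 0.24. Endothelial markers moved in these samples too: 4 of 8 rose (1 without the 2 arrays), with a list level of 8.44 to 8.81 against 8.07 to 8.61. The platelet gene Pf4 rose by 0.71 (adjusted p = 0.000218, and 0.00139 without the 2 arrays), Tnni3 of cardiac muscle rose (0.21, adjusted p = 0.0134) and Acta2 of smooth muscle fell (-0.19, adjusted p = 0.00829). Their part in the result was not tested.

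Sorafenib lowered Lamb1, the beta chain of most laminins, in heart at 24 h. The 8 Sorafenib rats had values of 11.18, 11.37 and 11.48 (lowest, median, highest) and the 8 rats given F68/PG/PEG400 had 11.49, 11.76 and 11.86, so the highest treated rat lay just under the lowest control rat and the groups did not overlap. The change was -0.35 (SE 0.086, adjusted p = 0.0100), and it was 1 of 51 chains called where 2.38% of all genes were. It was -0.32 within the first array set and -0.38 within the second, and without the heart array of rat 6M68 its adjusted p was 0.000645. At 6 h the Lamb1 change was -0.23 (adjusted p = 0.0850, and 0.0284 without that array). At 1 h it was -0.18, and -0.06 without that array, which belongs to the group compared there.

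Lama4 and Lamc1, laminin partners of Lamb1, and the type IV chains Col4a1 and Col4a2 had smaller changes at 24 h, with no test against Lamb1. Lama4 in heart had -0.21 at 6 h (adjusted p = 0.0971, and 0.0462 without the array of rat 6M68) and -0.20 at 24 h (adjusted p = 0.219). Lamc1 had -0.07 at 24 h (adjusted p = 0.785), and Col4a1 and Col4a2 had -0.12 and -0.09 (adjusted p = 0.770 and 0.926). After Sunitinib, Lamb1 in heart had values of 11.39, 11.58 and 11.84 at 24 h against 11.54, 11.73 and 11.95 after sterile water, a difference of -0.12 with adjusted p = 0.627. Whether the 2 oral drugs differ in this was not tested, since each had its own vehicle and dose.

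At 6 h the chain called in heart after Sorafenib was Col5a3, a regulatory chain of fibril assembly, 1 of 51 where 7.17% of all genes were called. It had 7.53, 7.87 and 8.22 after Sorafenib and 7.89, 8.12 and 8.38 after F68/PG/PEG400, overlapping groups with a change of -0.24 (SE 0.076, adjusted p = 0.0375). The difference was -0.38 in rats without Temsirolimus and -0.10 in rats with it. Without the array of rat 6M68, the calls at 6 h were Col5a3, Lama4 and Lamb1, all lower, beside 9.02% of all genes.

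At 1 h in heart 0 chains were called in limma (0.176% of all genes). There 25.5% of the chains had an unadjusted p under 0.05, beside 17% of all genes. Of the 51, 41 were lower with a median of -0.09, and without the array of rat 6M68 39 were lower with a median of -0.04, with Col4a1 at -0.33 and then -0.26.

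Among the partners of these chains in heart, Itga6, the alpha chain of laminin receptors, fell at 6 h (-0.76, adjusted p = 1.07e-09) and 24 h (-0.46, adjusted p = 0.000479) after Sorafenib, and also at 6 h after Sunitinib (-0.41, adjusted p = 0.00458). Nid2, a nidogen that ties laminin to type IV collagen, fell at 6 h (-0.47) and 24 h (-0.70, adjusted p = 0.000937). Those were 1 of 11 receptors and 1 of 9 basement membrane partners at each time. Loxl1 fell (-0.39) and Plod1, a lysyl hydroxylase, rose (0.22) at 6 h, and Ctsk, a collagen-cleaving cathepsin, fell at 24 h (-0.30).

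Macrophage transcripts were lower in the same hearts. At 24 h 8 of 9 macrophage markers fell and the level of the list was 7.05 to 7.80 after Sorafenib and 8.18 to 8.77 after F68/PG/PEG400. At 6 h 7 of 9 fell, with levels of 7.99 to 8.32 against 8.31 to 9.69. Of 8 endothelial markers Kdr and Egfl7 fell at 24 h (Kdr by -0.60), while the list level was 10.3 to 10.5 against 10.4 to 10.6. At 6 h Kdr (-0.80, adjusted p = 6.47e-08) and Emcn (-0.27) fell, as did Tcf21 of fibroblasts (-0.29). The pericyte marker Cspg4 fell at 6 h (-0.40, adjusted p = 0.000234), when the groups did not overlap, and at 24 h (-0.41, adjusted p = 0.000352). Camp of granulocytes (-0.29) and Ahsp of erythroid cells (-0.94) also fell at 6 h. Rgs5, on the same list as Cspg4, rose at 6 h by 0.41 (adjusted p = 0.0582, and 0.0426 without the array of rat 6M68). Without that array, Egfl7 (-0.15) also fell and Ryr2 of cardiac muscle (0.21) rose at 6 h, and Lum of fibroblasts fell at 24 h (-0.28). Their part in the Lamb1 and Col5a3 results was not tested.

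In liver, Sorafenib lowered Col13a1 at 6 and 24 h, the 1 chain of 51 called at either time, where 0.64% and 0.295% of all genes were called. At 6 h the 8 treated rats had 6.19, 6.42 and 6.75 and the 8 controls 6.62, 6.92 and 7.02, a change of -0.44 (SE 0.10, adjusted p = 0.0164). At 24 h they had 6.03, 6.62 and 6.93 against 6.92, 7.16 and 7.92, a change of -0.61 (SE 0.10, adjusted p = 0.000225). Of the 8 treated rats at 24 h, 6 lay below every control and the highest of the others just passed the lowest control. The highest control value was that of rat 4M48, and without its array the change was -0.51 (adjusted p = 0.000571).

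Within the first and second array sets the Col13a1 change at 24 h was -0.50 and -0.72. At 1 h it was -0.09 (adjusted p = 1.00), 0 chains were called in liver (0% of all genes) and 0 had an unadjusted p under 0.05. The change in Col13a1 from hour to hour had an unadjusted p of 0.00214 and an adjusted p of 0.441. Without the arrays that stand apart, Col25a1 also passed at 6 h (0.30, adjusted p = 0.0389, against 0.0753 with them), when 1.84% of all genes were called. Over all arrays 0 cell type markers passed in liver at 6 or 24 h in limma. Without those arrays the endothelial marker Egfl7 (-0.19, adjusted p = 0.0194) and Kit (-0.21, adjusted p = 0.0389) fell at 6 h, and Mrc1, a macrophage receptor also found on sinusoidal endothelium, fell at 24 h (-0.46, adjusted p = 0.00104). The endothelial level there was 8.32 to 8.57 after Sorafenib and 8.43 to 8.81 after F68/PG/PEG400. Ctsk fell at 24 h (-0.33), with adjusted p = 0.0641 without the array of rat 4M48.

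Sunitinib called 0 chains in any tissue at any time in limma. In liver at 6 h Col13a1 had 6.28, 6.74 and 7.04 after Sunitinib and 6.89, 7.05 and 7.40 after sterile water, a difference of -0.39 with adjusted p = 0.183 and, without the 2 liver arrays that stand apart, of 0.0282. The liver background was 0% at 1 h, 0.0703% at 6 h and 0% at 24 h, and 1, 3 and 14 chains had an unadjusted p under 0.05, the last being 27.5% of the chains beside 22.6% of all genes. The array of rat 7M78 is among the treated rats of the last of these: Col15a1 had 0.29 with it and 0.09 without it. In bone marrow 0%, 0% and 0.113% of all genes were called at 1, 6 and 24 h, with 5, 2 and 2 chains at the unadjusted level. In heart the shares were 0.0141%, 0.774% and 0.0211%, with 3, 4 and 1 chains.

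**Figure D3:**
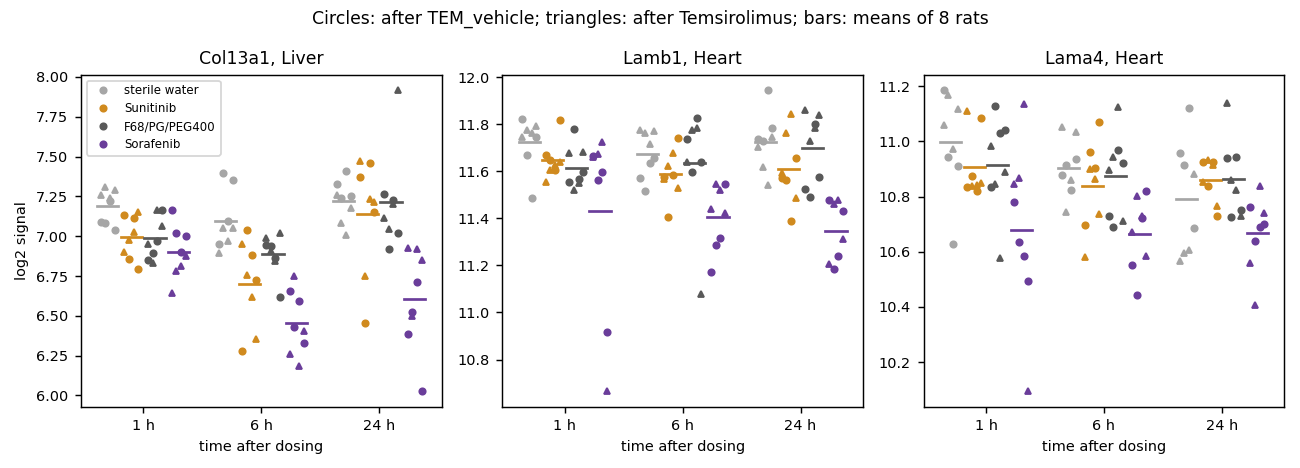
The log2 signal of Col13a1 in liver and of Lamb1 and Lama4 in heart at 1, 6 and 24 h, with a circle for each rat after TEM_vehicle, a triangle for each rat after Temsirolimus and a bar for the mean of 8 rats. After Sorafenib (purple) Col13a1 lies lowest at 6 and 24 h, and the Lamb1 values at 24 h, up to 11.48, lie below every rat given F68/PG/PEG400 (dark grey, from 11.49).

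In bone marrow the Sorafenib calls among the chains changed with the array of rat 4M45. At 6 h Lama5, an alpha chain of vessels and epithelia, was the 1 chain of 51 called, where 5.23% of all genes were. It had 5.22, 5.36 and 5.65 after Sorafenib and 5.30, 5.57 and 6.58 after F68/PG/PEG400, a change of -0.29 (SE 0.091, adjusted p = 0.0470). The highest control value belonged to rat 4M45, without which the change was -0.16 (adjusted p = 0.506) and 0.106% of all genes were called. Of the 51 chains 45 were lower at 6 h, with a median of -0.14 beside -0.01 over all genes, and without that array 41 were lower with a median of -0.10. Tgm2 (-0.36) and the neutrophil collagenase Mmp8 (1.03) were called among the partners, and neither was without that array (adjusted p = 0.246 and 0.419). Of the cell type markers, Tek, Egfl7 and Emcn of endothelium fell and Mrc1, Alas2, Slc4a1 and Kit rose, of which Emcn alone passed without that array (-0.64, adjusted p = 0.0169). Their part in the result was not tested.

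At 24 h Lamb3, a beta chain of epithelial laminin, rose in marrow after Sorafenib, 1 of 51 where 7.34% of all genes were called. Values were 5.22, 5.52 and 5.86 against 5.19, 5.30 and 5.48, overlapping groups of a dim probe set with a change of 0.19 (SE 0.058, adjusted p = 0.0321). Without the array of rat 4M45 the calls were Lamb3, Col19a1 (0.21, adjusted p = 0.0396) and Col7a1 (0.17, adjusted p = 0.0286), all higher, and Lamc1 (-0.22, adjusted p = 0.0200), and 15.8% of all genes were called. Nid1, the nidogen of most basement membranes, fell (-0.43, adjusted p = 0.0104), 1 of 9 basement membrane partners, as did Pxdn (-0.29) and Colgalt1 (-0.14), and Itga7 rose (0.23). Of 8 endothelial markers Kdr and Emcn fell, with list levels of 7.62 to 8.09 against 7.98 to 8.23. The erythroid marker Alas2 rose (0.26, adjusted p = 0.0187). Without the array of rat 4M45, Tek of endothelium and Rgs5 and Pdgfrb of pericytes fell as well, and Slc4a1, Adgre1, Mfap5, Serpina1 and Myl2 rose. Their part in the result was not tested. At 1 h 0 chains were called in limma (0.00703%), with 3 at the unadjusted level.

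**Figure D4:**
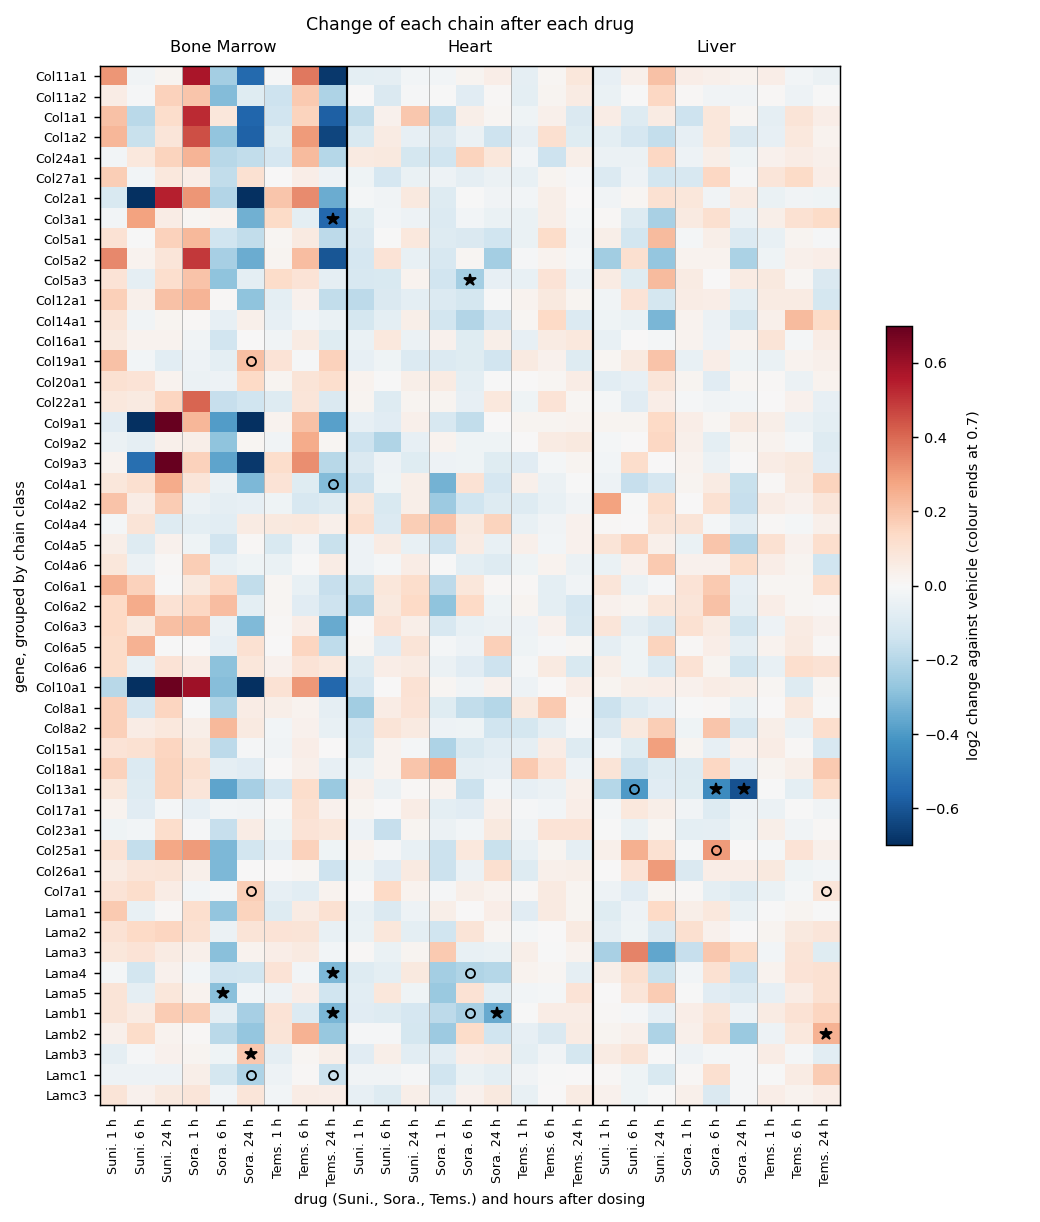
The log2 change of each of the 51 chains against its vehicle for the 3 drugs and 3 times in bone marrow, heart and liver, blue for lower and red for higher, with the colour ending at 0.7. Stars mark adjusted p under 0.05 and open circles the chains that pass only without the 4 arrays that stand apart; the marrow columns hold the deepest colours, in chains of wide spread, and few marks.

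Over time in the vehicle rats, 3 chains differed. Lama3 in liver ran 8.88, 9.28 and 9.56 at 1 h, 7.67, 8.26 and 8.83 at 6 h, and 9.45, 9.67 and 10.0 at 24 h (lowest, median, highest of 8 rats). The 6 h rats lay below those of both other times without overlap, by -0.97 against 1 h (adjusted p = 1.36e-10 for the test over the 3 times). Col27a1, a fibril chain, followed a similar course in liver, with medians of 7.29, 6.94 and 7.43 (adjusted p = 4.51e-05). Those were 2 of 51 chains in liver, where 4.89% of all genes were called. In heart Col5a3 was 1 of 51 (2.41% of all genes), with medians of 8.63, 8.31 and 8.27 at 1, 6 and 24 h and a lowest 1 h value of 8.43 (adjusted p = 0.000672). In marrow 0 of 51 differed (0.281%), with 3 chains at the unadjusted level. The hour of the day at sampling is not given in the sources used here.

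The 2 oral vehicles did not part the chains: 0 of 51 were called in limma in bone marrow (0% of all genes), heart (0%) and liver (0.141%), with 4, 3 and 0 at an unadjusted p under 0.05. The interaction of Temsirolimus with an oral drug gave 0 of 51 in marrow (0%), heart (0.0352%) and liver (0%), with 6, 10 and 1 at the unadjusted level. A change that differs between the times was called for 0 chains in limma. The shares of all genes were 0%, 0.0985% and 0% for Sunitinib in marrow, heart and liver, 6.87%, 8.21% and 0.0774% for Sorafenib, and 0.0844%, 0.155% and 1.01% for Temsirolimus. At the unadjusted level the chains numbered 3, 4 and 4 for Sunitinib, 13, 4 and 4 for Sorafenib, and 11, 1 and 3 for Temsirolimus. The difference between the hours after Temsirolimus in marrow therefore did not pass for any chain, although 3 were called at 24 h and 0 at 6 h.

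Between tissues, a change was compared within each rat, over the 3 times together. For Temsirolimus 4 of 51 chains differed (7.84%), near the 6.27% of all genes. This test uses 1 spread for all tissue differences of a gene, and on simulated data with unequal spread between tissues it made more false calls than its threshold allows. At 24 h the changes in marrow, heart and liver were -0.55, -0.01 and 0.13 for Col3a1 (adjusted p = 0.00343), -0.32, 0.05 and 0.15 for Lamb1 (adjusted p = 0.00521), -0.32, -0.06 and 0.11 for Lama4 (adjusted p = 0.0121), and -0.27, 0.06 and 0.24 for Lamb2 (adjusted p = 0.0246). Each was lower in marrow and higher in liver at that hour.

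When each gene kept its own covariance between the tissues, an alternative added after seeing the data, Lama4 (adjusted p = 0.0330) and Lamb1 (adjusted p = 0.0405) still passed, while Col3a1 had 0.0837 and Lamb2 0.0626. Without the arrays that stand apart, 0 chains passed that test for Temsirolimus, and 3 (Col3a1, Lama4 and Lamb1) passed the test with a common spread. For Sorafenib 1 of 51 differed (6.48% of all genes), Col25a1, a membrane collagen of neurons with a signal near the low end of the scale, whose 6 h changes were -0.31 in marrow, 0.07 in heart and 0.30 in liver (adjusted p = 0.00428). With its own covariance Col13a1 also passed for Sorafenib (adjusted p = 0.0250, against 0.0753). For Sunitinib 0 of 51 differed in limma (0.12%), with 4 at the unadjusted level.

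The chains varied more between like-treated rats in bone marrow than in the other tissues. The SD left after group and array set had a median over the 51 chains of 0.22 in marrow, 0.15 in heart and 0.18 in liver, beside 0.16, 0.15 and 0.17 over all genes. In marrow 8 chains had an SD over 0.5, a spread found for 1.04% of all genes, and 0 did in heart and liver. Of these, 4 are best known from cartilage, Col10a1, the collagen of hypertrophic chondrocytes (SD 1.31, from 4.86 to 10.4 over 96 rats), Col2a1 (1.29, from 4.74 to 9.84), Col9a1 (0.94) and Col9a3 (0.63). The others were fibril chains found in bone, Col1a1 (0.79, from 9.05 to 13.5), Col11a1 (0.75), Col1a2 (0.71) and Col5a2 (0.62).

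These wide chains also had the largest drug differences among the 51, none of which passed. After Sorafenib at 24 h Col10a1 had marrow levels of 5.29, 5.54 and 6.94 (lowest, median, highest of 8 rats) against 4.87, 6.67 and 9.60 in the 8 rats given F68/PG/PEG400, which overlapped, a difference of -1.53 (SE 0.63, adjusted p = 0.137). Col2a1 had -1.50, Col9a1 -1.08 and Col9a3 -0.68 in that comparison, with unadjusted p of 0.0185, 0.0197 and 0.0293. After Sunitinib the 4 cartilage chains were lower at 6 h, between -0.53 for Col9a3 and -0.91 for Col2a1, and higher at 24 h, between 0.55 for Col2a1 and 0.81 for Col9a3. Means and medians parted in such chains, as Col10a1 reached 10.4 in 1 Sunitinib rat at 24 h with a treated median of 5.92 and a control median of 6.32.

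Some chains of the same kind followed each other closely from rat to rat, while the median r over all pairs was 0.14 in marrow, 0.07 in heart and 0.08 in liver. Correlations are of what is left after group and array set over 96 arrays of a tissue, which share tissue collection, sample preparation and array plates, and are given as a description. In marrow the closest pairs were Col1a2 and Col5a2 (r = 0.96), Col1a2 and Col11a1 (0.96) and Col10a1 and Col2a1 (0.95), followed by Col2a1 and Col9a1 (0.94). Col1a1 and Col1a2 had r = 0.89, and 0.97 without rat 4M45, where Col1a1 was low for its Col1a2. Of 1275 pairs, 42 had r over 0.7 in marrow, 30 in heart and 19 in liver (42, 25 and 12 without the arrays that stand apart).

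Col4a1 and Col4a2, which share the promoter printed above and whose proteins join in 1 trimer, had r = 0.16 in marrow, 0.63 in heart and 0.20 in liver, from 1 probe set each. The laminin partners Lamb1 and Lamc1 had 0.40 in marrow, 0.86 in heart and 0.61 in liver, and 0.51, 0.79 and 0.43 without the arrays that stand apart. Col1a2 and Col3a1 had 0.84 in heart and 0.85 in liver.

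The genes most like Col1a1 in marrow were Cpe (r = 0.92), Serpinf1 (0.91), Bglap (0.89), Col1a2 (0.89) and Sparc (0.89). Without the array of rat 4M45 they were Col1a2 (0.97), Serpinf1 (0.94), Col5a2 (0.94), Col11a1 (0.93) and Col5a1 (0.91). In heart they were Col3a1 (0.80), Col15a1 (0.79), Col6a1 (0.78), Col4a1 (0.77) and Col1a2 (0.74), with Ipo9 (0.72) in place of Col1a2 without the array of rat 6M68. In liver they were Col1a2 (0.66), Col6a2 (0.63), Postn (0.61), Mfap5 (0.60) and Col6a1 (0.57), with Fndc1 (0.65) in place of Col6a1 without the arrays that stand apart. The genes most like Col4a1 were Epas1 (0.73), Cav1 (0.71), Igfbp7 (0.70), Col6a1 (0.69) and Rasd1 (0.67) in marrow, where Ptprb (0.71) and Mgp (0.70) replaced Col6a1 and Rasd1 without the array of rat 4M45. They were Epb41l2 (0.87), Rac1 (0.86), Septin2 (0.85), Agrn (0.84) and App (0.84) in heart, and Serpinh1 (0.87), Igfbp7 (0.86), Col3a1 (0.86), Col14a1 (0.82) and Pxdn (0.82) in liver, with Col5a1 (0.73) in place of Col14a1 without the arrays that stand apart. Lamb1 was followed by Uaca (0.64), Col4a1 (0.64), Col6a3 (0.62), Nid1 (0.61) and Fgfr1 (0.60) in marrow, by Lamc1 (0.86), Lama2 (0.83), Vcl (0.82), Myh10 (0.81) and Tspan9 (0.81) in heart, and by Reln (0.74), Col6a3 (0.74), Pdgfra (0.74), Septin4 (0.73) and Pxdn (0.72) in liver. Without the arrays that stand apart, Tjp1 (0.70) and Mpzl1 (0.63) replaced Col6a3 and Fgfr1 in marrow, Lhfpl6 (0.69) and Timp1 (0.66) replaced Septin4 and Pxdn in liver, and in heart Lamc1 (0.79) was followed by Atp11a (0.79), Usp33 (0.79), Luc7l3 (0.78) and Cd2ap (0.78). Each list of all arrays is over the 96 of its tissue.

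**Figure D5:**
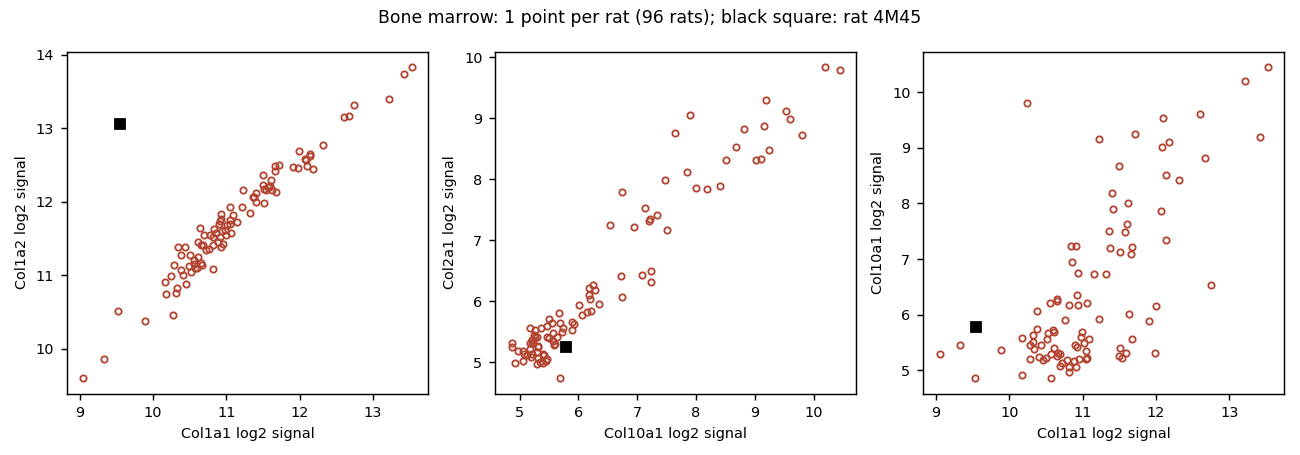
Log2 signals of pairs of chains in bone marrow, Col1a1 with Col1a2, Col10a1 with Col2a1, and Col1a1 with Col10a1, with a point for each of 96 rats and a black square for rat 4M45. The first 2 pairs lie along a line, with r = 0.89 and 0.95 after group and array set, and the cartilage chain Col10a1 runs from 4.86 to 10.4 at like levels of Col1a1.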

How the data were processed

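The authors made the values from the scanned arrays by RMA (background correction, quantile normalization and median polish), and the deposited values are log2 signals per probe set. The version of RMA is not given in the sources used here. The values were used as deposited. Array quantiles are alike within a tissue and differ between tissues, so tests were run within a tissue or on differences between tissues of 1 rat. Arrays have no read depth, so the number of rats limits the precision.

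Samples were grouped by their labels into 24 groups of 4 rats in each tissue. Probe sets were named through the platform annotation: 20832 had 1 symbol, 436 had several and 9831 were not listed, and only those with 1 symbol were used. For each gene the probe set with the highest mean in a tissue was kept. R 4.3.3 with limma 3.58.1 fitted each tissue with 24 group means and a term for the array set within each time, and p-values were adjusted by Benjamini-Hochberg over 14218 genes. Array names place 2 rats of every group on certain plates and the other 2 on different ones, which defines the array set. The paper reports dosing on 2 consecutive days, with 2 rats per dose group on each. Whether the array sets match those days is not stated, so plate and dosing day cannot be told apart here. Differences between tissues keep the rat as a block; the pairing comes from the labels, since every rat gave all 3 tissues. The scripts were tested on simulated data. Alternatives were another filter, normalization, probe set or set of arrays, and no array set terms. Others were covariates, such as the N2 mark of marrow arrays, each intravenous or oral arm alone, and leaving out each replicate number.

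The members, gene lists, named genes and tests were chosen with earlier results of these data known. Named genes were Col4a1, Col4a2, Col1a1, Col1a2, Col3a1, Lama4, Lamb1 and Lamc1; for each drug and tissue up to 6 called chains with the largest change; in each F test the 4 called chains with the smallest adjusted p; of each partner list up to 3 called genes per drug and tissue; and for Col4a1, Col1a1 and Lamb1 the 5 genes with the highest correlation in each tissue. Other chains, such as those with the largest tissue differences or spread and those called only under an alternative, were named after their values were seen.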

Additional observations from a re-analysis of the deposited data

Results flagged for a closer look

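In 6 groups of 4 rats, a chain named above had 1 rat far from the other 3, and chance flags about 1 in 20 such groups. The number of groups searched is not given here, so the 6 do not stand out from chance. In bone marrow at 6 h, Lama5 was 5.65 in rat 8M94 (TEM_vehicle then Sorafenib) where the other 3 had 5.36, 5.36 and 5.38. At 24 h in marrow, Col7a1 was 6.27 in rat 2M23 (TEM_vehicle then F68/PG/PEG400) and 6.42 to 6.44 in its group, and Lamb3 was 5.33 in rat 6M72 (Temsirolimus then Sorafenib) and 5.57 to 5.59 in its group. Col4a1 in marrow at 24 h was 6.93 in rat 1M5 (TEM_vehicle then sterile water), below 7.40, 7.49 and 7.50. Lamb1 in marrow at 24 h was 7.02 in rat 7M78 (TEM_vehicle then Sunitinib), above 6.30, 6.32 and 6.39; this is the rat whose liver array stands apart. In liver at 1 h, Col27a1 was 7.52 in rat 2M14 (TEM_vehicle then F68/PG/PEG400), above 7.13, 7.16 and 7.17.

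The change after a drug differed between tissues for 5 chains by limma's test of the differences within rats: Col25a1 after Sorafenib (adjusted p = 0.00428), and after Temsirolimus Col3a1 (adjusted p = 0.00343), Lamb1 (adjusted p = 0.00521), Lama4 (adjusted p = 0.0121) and Lamb2 (adjusted p = 0.0246). Those were 4 of 51 for Temsirolimus (7.84%), near the 6.27% of all genes, and 1 of 51 for Sorafenib, beside 6.48%. On simulated data with unequal spread between tissues, limma's test made more false calls than its threshold allows. With each gene's own covariance Col3a1 and Lamb2 lost the call (adjusted p = 0.0837 and 0.0626), and without the arrays that stand apart 0 chains passed that test for Temsirolimus.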

How the results depend on the processing

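Counts are of chains called at 1 or more of 3 times. For the counts as reported, the shares of all genes called are given above. For the alternatives they are not given in this section, so those counts do not single out the chains. As reported, Sorafenib had 2 in marrow, 2 in heart and 1 in liver, and the rest were 3 for Temsirolimus in marrow, 0 in heart and 1 in liver, 0 for Sunitinib in liver, 0 for Sorafenib by time and 5 between tissues. With a mean signal of at least 6 required, Sorafenib in marrow gave 1 and Temsirolimus in liver 2; after a further quantile normalization they gave 0 and 3. Without array set terms, Sorafenib in marrow gave 0, Temsirolimus in marrow 1 and the tissues 3. With the second probe set of a gene, Sorafenib gave 1 in marrow, 2 in liver and 2 by time. Without the arrays of rats 4M45 and 4M48, Sorafenib in marrow gave 4 and Temsirolimus in marrow 5, and without that of rat 7M78 Sorafenib in liver gave 2. Leaving out all 4 arrays that stand apart was an alternative added after seeing the data. Sunitinib in liver then gave 1, Sorafenib in marrow 4, in heart 3 and in liver 2, and Temsirolimus in marrow 5. With a drug alone, Sunitinib in liver gave 3 (Col11a1, Col15a1 and Col4a6, from the group that holds rat 7M78), Sorafenib in marrow 1 and in heart 1, and Temsirolimus 0 in marrow and in liver. In rats given the other agent, Sorafenib gave 7 in marrow, with rat 4M45 among its controls, and 0 in heart and in liver. Leaving out each replicate number in turn gave 0 to 2 for Sorafenib in marrow, 0 to 2 in heart, 0 to 2 in liver and 0 to 1 by time, 0 to 3 for Temsirolimus in marrow, 0 to 1 in heart and 0 to 1 in liver, and 1 to 6 between tissues. Treating the tissues of a rat as independent, with no replicate block, gave 5 between tissues; each gene's own covariance without the arrays that stand apart gave 3. Over all settings, the counts were marked as moved 42 times and as the same 176 times. The calls of single chains stayed past the threshold 80 times, lost it 48 times and changed direction in none. Col13a1 in liver at 24 h after Sorafenib lost it without replicate 4 (-0.47, adjusted p = 0.158) and in rats given Temsirolimus (-0.52, adjusted p = 0.179). The cause was not tested, except that fewer rats were used where an arm, an array or a replicate was left out. The calls rest on 8 or 16 rats a side and on changes under 0.7 on the log2 scale, several of dim probe sets.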
